A study of Mus musculus with 12 samples.

Results

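Ms4a3, Fcer1a and Il1rl1, genes known from granulocyte-monocyte and mast cell progenitors, were taken by symbol from the authors' table of probe sets changed at least 2-fold in irradiated bone marrow KSL cells, and so were selected on their measured difference between irradiated and non-irradiated arrays. Each gene had 1 probe set in that table, so 3 of the 22626 probe sets measured are described. The arrays fall into 6 of KSL cells from C57Bl/6 mice given 550 cGy from a cesium irradiator and 6 of KSL cells from C57Bl/6 mice that were not irradiated (0 cGy). The mice were 10 weeks old, and the study's design text places the isolation at day 14 after irradiation. KSL cells carry the surface proteins Kit and Sca-1, lack those of mature lineages, and include the stem cells and early progenitors of blood. The comparison addresses how regenerating cells differ from those at steady state.

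Ms4a3 encodes a membrane protein with several membrane-spanning segments, and in mice it marks granulocyte-monocyte progenitors and the cells that come from them. Fcer1a encodes the alpha chain of the high affinity IgE receptor, the chain that binds IgE, and is a surface marker of mast cells and basophils. Il1rl1 encodes ST2, the receptor for the alarmin IL-33, which mast cells, basophils and other cells of type 2 immunity carry. Binding of IL-33 brings in a shared accessory chain and signals through MyD88. A soluble form of ST2 is also made and takes up IL-33 without signalling. Which of the 2 forms the Il1rl1 probe set measures was not analysed here.

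The values are the log2 expression values deposited by the authors, with array medians from 6.94 to 7.01. No pair of arrays was identical, and the smallest SD of a difference between 2 arrays was 0.28. The number of arrays limits the precision, with a median SE of 0.132 for a log2 difference between the groups. The labels do not say that arrays came from separate mice, so the spread behind each p-value may be technical. Replicates 4 to 6 stood apart from replicates 1 to 3: their mean level differed for 2694 probe sets, or 11.9% of all (limma, Benjamini-Hochberg adjusted p under 0.05, here and below over all probe sets). The labels name no batch. Kit and Ly6a, the genes of the sorting markers, carry no name here, so the sort was not checked on these arrays.

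The windows from 250 bases before to 50 bases after the annotated starts are shown because the 3 genes differed in the same direction between the groups. They come from RefSeq (GRCm38.p6) and read 5′ to 3′ on the strand of the gene. Capitals mark matches on either strand to GATAA (GATA factors), TTGCNNAA (C/EBP factors) and TGTGGT (RUNX factors). No match overlapped another. GAGGAAGT (PU.1) was searched too. The Ms4a3 window lies at chr19:11640802-11641101 on the minus strand and the Fcer1a window at chr1:173227180-173227479 on the minus strand. Il1rl1 has 2 starts in the table, an upstream one at chr1:40429320-40429619 and a downstream one at chr1:40439379-40439678, both on the plus strand.
Ms4a3: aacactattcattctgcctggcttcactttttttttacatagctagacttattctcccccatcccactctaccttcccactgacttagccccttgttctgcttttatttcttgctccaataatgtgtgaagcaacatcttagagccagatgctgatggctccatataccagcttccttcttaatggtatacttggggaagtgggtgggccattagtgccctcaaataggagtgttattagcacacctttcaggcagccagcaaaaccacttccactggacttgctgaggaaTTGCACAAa
Fcer1a: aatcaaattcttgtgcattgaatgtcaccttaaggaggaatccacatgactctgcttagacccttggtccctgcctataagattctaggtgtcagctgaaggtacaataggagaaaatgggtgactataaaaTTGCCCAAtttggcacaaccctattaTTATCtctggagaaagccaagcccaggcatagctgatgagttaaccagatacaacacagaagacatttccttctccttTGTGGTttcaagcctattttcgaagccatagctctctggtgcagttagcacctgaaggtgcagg
Il1rl1, upstream start: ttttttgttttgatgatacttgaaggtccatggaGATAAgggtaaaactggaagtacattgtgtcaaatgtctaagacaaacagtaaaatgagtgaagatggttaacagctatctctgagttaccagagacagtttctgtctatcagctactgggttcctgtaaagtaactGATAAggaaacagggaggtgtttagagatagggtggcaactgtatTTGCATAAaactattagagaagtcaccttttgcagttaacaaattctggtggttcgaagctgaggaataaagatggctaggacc
Il1rl1, downstream start: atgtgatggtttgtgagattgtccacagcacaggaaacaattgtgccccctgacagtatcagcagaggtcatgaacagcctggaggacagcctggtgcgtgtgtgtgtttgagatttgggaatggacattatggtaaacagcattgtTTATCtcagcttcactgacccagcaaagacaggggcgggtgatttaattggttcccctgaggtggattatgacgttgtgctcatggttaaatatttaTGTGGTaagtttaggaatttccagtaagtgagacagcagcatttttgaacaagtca

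GATAA was found in the Fcer1a window and in both Il1rl1 windows, with 2 matches at the upstream start of Il1rl1, and 0 in the Ms4a3 window. It is present in 25.4% of the 32851 windows of the same length. TTGCNNAA was found once each in the windows of Ms4a3, Fcer1a and the upstream start of Il1rl1, against 10.8% of all windows. TGTGGT was found in the Fcer1a window and at the downstream start of Il1rl1, against 16.8% of all windows, and GAGGAAGT in 0 of the 4 windows, against 3.2%. The GATAA matches began at -92 from the start in Fcer1a, at -216 and -79 at the upstream start of Il1rl1 and at -103 at its downstream start. Such matches describe the letters of these windows and no more.

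All 3 genes had higher mean levels in irradiated than in non-irradiated KSL cells, Ms4a3 by 3.53-fold, Fcer1a by 2.14-fold and Il1rl1 by 2.02-fold. These folds are what chose the genes, since the authors' table holds only probe sets with at least a 2-fold change and an unadjusted p under 0.05 on these same arrays. They are therefore given as a description with no test. All 3 are among the 1329 probe sets called higher in limma, 5.87% of those tested, which the choice of the genes favours. In all, 1238 probe sets were called lower, and with array medians subtracted the calls were 1765 higher and 1081 lower. In the authors' deposited table the ratios ranked 34, 149 and 175 by size among the 178 higher probe sets for Ms4a3, Fcer1a and Il1rl1. Il1rl1 thus stood near the 2-fold limit. The named probe sets of Septin8 (2.00-fold) and Slc14a1 (2.01-fold) lay just inside it, and 2 unnamed probe sets at 1.99-fold lay just outside. In cell mixtures such as these, more cells of a type and more RNA per cell cannot be told apart.

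Ms4a3 read 10.25, 10.52 and 10.24 in irradiated replicates 4 to 6 and 10.43, 10.98 and 10.55 in irradiated replicates 1 to 3. In the non-irradiated cells it read 9.77, 9.88 and 9.92 in replicates 4 to 6 and 7.17, 7.52 and 7.83 in replicates 1 to 3 (all log2). The irradiated arrays lay close together and above every non-irradiated array. Such a separation upwards was seen for 3.00% of all probe sets, and the choice of the gene favours it. The non-irradiated arrays formed 2 clusters with no array between 7.83 and 9.77. The means were 10.50 ± 0.27 in irradiated and 8.68 ± 1.30 in non-irradiated cells (log2, SD, n = 6 each), a log2 difference of 1.82 (SE 0.48). With array weights estimated by limma it was 1.16. The SD of the non-irradiated arrays compares with a median of 0.227 over all probe sets in the same arrays.

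Fcer1a belonged to the dimmest 40% of all probe sets by its mean over the arrays. It read 5.06, 5.82 and 6.03 in irradiated replicates 4 to 6 and 6.04, 6.23 and 6.34 in irradiated replicates 1 to 3. In non-irradiated cells it read 4.56, 5.74 and 5.35 in replicates 4 to 6 and 4.12, 4.85 and 4.32 in replicates 1 to 3 (log2). The groups overlapped, because irradiated replicate 4 lay below non-irradiated replicates 5 and 6, while the other 5 irradiated arrays lay above all non-irradiated ones. The means were 5.92 ± 0.46 in irradiated and 4.82 ± 0.62 in non-irradiated cells (SD, n = 6 each), a log2 difference of 1.10 (SE 0.28). No detection calls were used here, so how far these values stand above background is unknown.

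Il1rl1 read 7.38, 7.40 and 7.36 in irradiated replicates 4 to 6 and 8.27, 7.49 and 7.18 in irradiated replicates 1 to 3. In non-irradiated cells it read 6.73, 7.05 and 6.55 in replicates 4 to 6 and 5.89, 6.31 and 6.48 in replicates 1 to 3 (log2). Every irradiated array lay above every non-irradiated array, with a gap of 0.13 between irradiated replicate 3 and non-irradiated replicate 5. This separation upwards, seen for 3.00% of all probe sets, is favoured by the choice of the gene. Irradiated replicate 1 stood above the other 5 irradiated arrays. The means were 7.51 ± 0.39 in irradiated and 6.50 ± 0.39 in non-irradiated cells (SD, n = 6 each), a log2 difference of 1.01 (SE 0.20). Without irradiated replicate 1 the difference was 0.86.

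**Figure D1:**
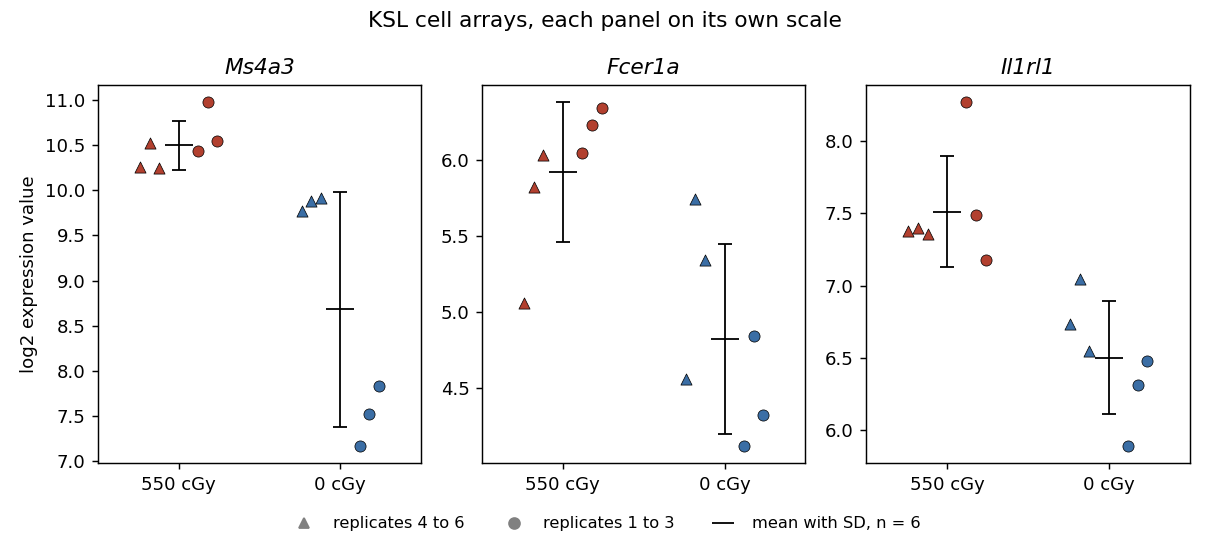
Log2 expression value of Ms4a3, Fcer1a and Il1rl1 on each array, with 550 cGy left of 0 cGy, triangles for replicates 4 to 6, circles for replicates 1 to 3, and the mean with SD over 6 arrays in black. The non-irradiated Ms4a3 values fall into 2 clusters by replicate set, Fcer1a overlaps between the groups, and Il1rl1 irradiated replicate 1 stands highest at 8.27.

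The size of the difference varied between the replicate sets, and for Ms4a3 this passed the test. The replicate sets were chosen with earlier results of these data known, so the p-value does not come from a split fixed in advance. Ms4a3 was 1.40-fold higher in irradiated replicates 4 to 6 and 8.87-fold higher in irradiated replicates 1 to 3 than in the non-irradiated arrays of the same numbers. The log2 changes were 0.49 and 3.15 (SE 0.18 each), and their difference was -2.66 (SE 0.26, limma adjusted p = 0.00503). With equal numbers of arrays the estimate of this difference is uncorrelated with that of the pooled change that chose the gene. The authors' limit on p also used the spread within the groups, so the choice is not fully separate from this test. A different change was called for 30 probe sets, or 0.133% of all. By the size of that difference Ms4a3 ranked 3 among these 30. The call held without any 1 array, with adjusted p from 0.00582 to 0.0348, and under all other alternatives tried.

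Between the sets, the Ms4a3 level itself differed in non-irradiated cells. Ms4a3 was 5.10-fold higher in non-irradiated replicates 4 to 6 than in non-irradiated replicates 1 to 3 (9.85 ± 0.08 and 7.50 ± 0.33 log2, SD, n = 3 each), a log2 difference of 2.35 (SE 0.18). This comparison within a dose was added after the data were seen and is given as a description. In the irradiated cells the same comparison set 10.34 ± 0.16 (replicates 4 to 6) against 10.65 ± 0.29 (replicates 1 to 3), a difference of -0.31 (SE 0.18). At the limma threshold such a difference between the sets was called for 8.40% of probe sets in non-irradiated cells and for 1.06% in irradiated cells. Of the 175 higher probe sets of the authors' table that are in the value table, 40 (22.9%) were called higher in non-irradiated replicates 4 to 6, against 5.14% of all probe sets. A different change between the sets was called for 3 of these 175. They are those of Ms4a3, of Mcm10, a DNA replication factor, and of Tmem97, a membrane protein of cholesterol handling.

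Fcer1a and Il1rl1 also had the smaller change in replicates 4 to 6, but without passing the test. For Fcer1a, replicates 4 to 6 gave a log2 change of 0.42 and replicates 1 to 3 one of 1.77 (SE 0.32 each), a difference of -1.35 (SE 0.45, limma adjusted p = 0.273). For Il1rl1, replicates 4 to 6 gave 0.60 and replicates 1 to 3 gave 1.42 (SE 0.25 each), a difference of -0.82 (SE 0.35, limma adjusted p = 0.413). In replicates 1 to 3 the lowest irradiated array lay above the highest non-irradiated one by 1.20 for Fcer1a and 0.70 for Il1rl1. In replicates 4 to 6 the Fcer1a arrays overlapped and the Il1rl1 arrays were 0.31 apart. The choice of the genes favours such gaps, and the share of all probe sets that showed them within a set is not given here. Among non-irradiated cells the level in replicates 4 to 6 was above that in replicates 1 to 3 by 0.79 for Fcer1a (SE 0.32) and by 0.55 for Il1rl1 (SE 0.25).

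**Figure D2:**
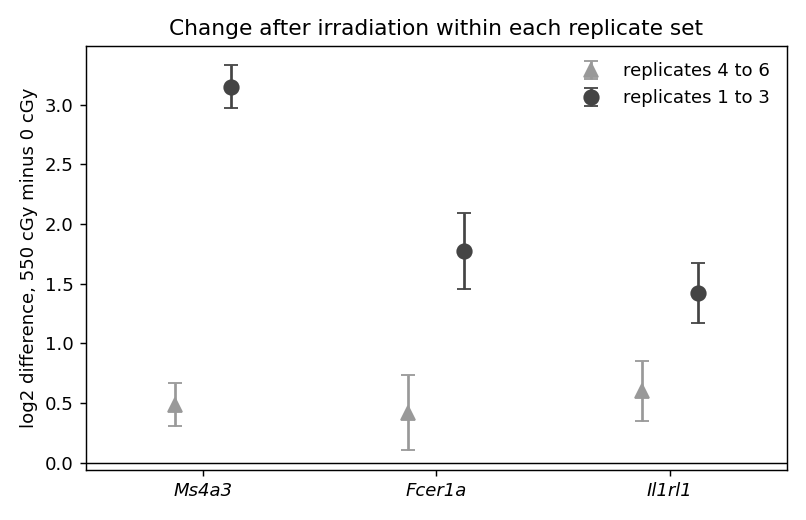
Log2 difference between 550 cGy and 0 cGy within replicates 4 to 6 (triangles) and replicates 1 to 3 (circles) for each gene, with bars of 1 SE from the fit over all 12 arrays. Ms4a3 has changes of 0.49 and 3.15 in the 2 sets, while the SE bars are 0.18.

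**Figure D3:**
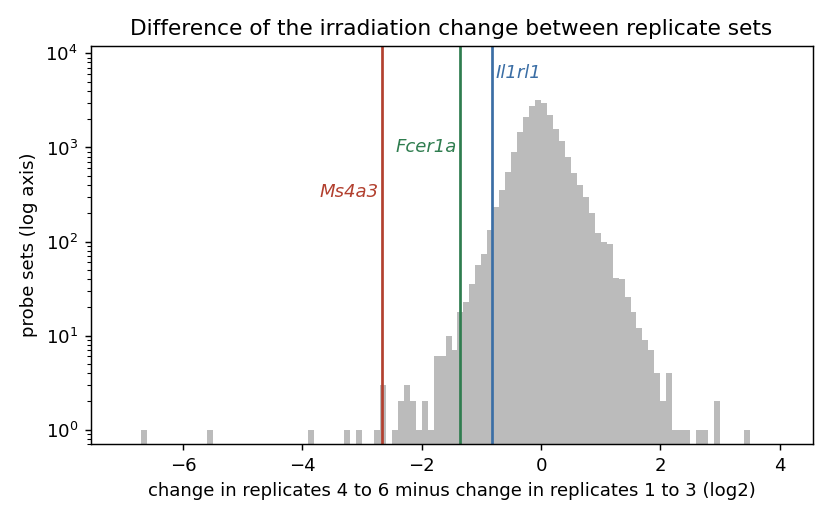
Number of probe sets, on a log axis, by the log2 change in replicates 4 to 6 minus the log2 change in replicates 1 to 3, over all 22626 probe sets, with the 3 genes as vertical lines. Ms4a3 at -2.66 lies in the left tail, and Fcer1a at -1.35 and Il1rl1 at -0.82 lie nearer the bulk.

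Erythroid marker genes differed between the same arrays. Of 13 in the list, 10 were in the authors' table, all with higher means in irradiated cells. By the brightest probe set 8 were called higher in limma, and Tfrc was called by its other probe set alone. Both counts were largely set by the table, which names only genes that changed at least 2-fold on these arrays. Of its 325 named genes 128 were higher and 113 of those were called, against 5.87% of all probe sets called higher. The mean log2 value of the 10 erythroid genes lay between 7.85 and 9.42 in the irradiated arrays and between 6.32 and 7.60 in the non-irradiated arrays. Among non-irradiated arrays replicates 4 to 6 had 7.39 ± 0.33 and replicates 1 to 3 had 6.41 ± 0.13 (SD, n = 3 each), the order that Ms4a3 showed too. The 175 higher probe sets of the authors' table in the value table had a median log2 difference of 0.68 in this direction. Among irradiated arrays replicates 4 to 6 had 9.14 ± 0.29 and replicates 1 to 3 had 8.36 ± 0.67 (SD, n = 3 each). Ms4a3 showed the opposite order there, with 10.34 and 10.65. Irradiated replicate 1, where Il1rl1 was highest, had the highest erythroid mean of irradiated replicates 1 to 3 (9.12), though not of all irradiated arrays. The part of these cells in the results was not tested.

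Among the irradiated arrays the 3 genes were not shown to vary together. Over the 6 irradiated arrays Ms4a3 and Fcer1a correlated with Pearson's r = 0.56 (exact permutation test, two-sided p = 0.254, adjusted p = 0.381) and Spearman's rho = 0.66 (exact p = 0.175, adjusted p = 0.263). Without irradiated replicates 2 and 6, farthest from the Ms4a3 median, r was 0.90 over 4 arrays. Ms4a3 and Il1rl1 gave r = -0.02 (exact p = 0.964, adjusted p = 0.964) and rho = 0.20 (exact p = 0.714, adjusted p = 0.857), and r = -0.14 without the same arrays. Fcer1a and Il1rl1 gave r = 0.06 (exact p = 0.878, adjusted p = 0.964) and rho = -0.09 (exact p = 0.919, adjusted p = 0.919), and r = 0.13 without replicates 3 and 4. Over the 6 non-irradiated arrays Fcer1a and Il1rl1 gave r = 0.74 (exact p = 0.0931, adjusted p = 0.269) and rho = 0.71 (exact p = 0.136, adjusted p = 0.263), and r = 0.49 without replicates 5 and 6. Both genes had higher means in non-irradiated replicates 4 to 6 than in 1 to 3 (by 0.79 and 0.55 log2), and these coefficients include that step. For Ms4a3 the non-irradiated arrays form separate clusters of 3 arrays each, so no pooled coefficient is given for it there, and 3 arrays are too few for one within a cluster. Taken over both clusters, its relation to Il1rl1 passed the 0.05 threshold by Pearson (exact permutation p = 0.00694, adjusted p = 0.0417) and missed it by Spearman (exact p = 0.0583, adjusted p = 0.263), and without replicates 1 and 2 it did not hold (exact p = 0.417). Its relation to Fcer1a missed the threshold by both (exact p = 0.135 and 0.103, adjusted p = 0.269 and 0.263). The permutations moved arrays between the clusters, so these p-values include the step between them. Whether either relation holds within a cluster could not be tested. In each relation of both groups the permutations moved arrays between the replicate sets. Adjustment was over the 6 relations computed.

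The named genes most like each of the 3 were found by Pearson's r over the 12 arrays after the mean of each group was subtracted, among 324 other named genes. These arrays share the replicate sets, and the values are a description. For Ms4a3 the first 5 were AK134344 (r = 0.94), Tmem97 (0.93), the mitochondrial malic enzyme gene Me2 (0.92), Mcm10 (0.91) and the lipid phosphatase gene Mtm1 (0.91). With the means of dose and replicate set subtracted, r became 0.21, -0.11, 0.20, -0.50 and 0.45, so this likeness rests on the step between the sets. For Fcer1a they were the aminopeptidase gene Aopep (r = 0.76), the Schlafen family gene Slfn3 (0.73), the proteasome chaperone gene Psmg3 (0.70), Tmem97 (0.66) and Mcm10 (0.65). With the means of dose and replicate set subtracted, these gave 0.67, 0.42, 0.62, 0.38 and 0.20. For Il1rl1 they were Slfn3 (r = 0.80), the macrophage perforin gene Mpeg1 (0.78), Psmg3 (0.75), the erythroid transcription factor gene Klf1 (0.75) and the water channel gene Aqp1 (0.73). With the means of dose and replicate set subtracted, the 5 genes of Il1rl1 gave r from 0.66 to 0.78. Ms4a3 itself ranked 7 of 324 for Fcer1a (r = 0.63) and 28 for Il1rl1 (r = 0.58), and Il1rl1 ranked 23 for Fcer1a (r = 0.45). In the other direction Fcer1a ranked 33 and Il1rl1 43 for Ms4a3, and Fcer1a ranked 60 for Il1rl1. With the means of dose and replicate set subtracted, these 3 values of r were 0.27, 0.085 and 0.067.

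Slfn3, near the top for both Fcer1a and Il1rl1, read 5.23, 5.69 and 5.72 in irradiated replicates 4 to 6 and 6.66, 6.11 and 5.74 in irradiated replicates 1 to 3. In non-irradiated cells it read 4.77, 5.24 and 5.15 in replicates 4 to 6 and 4.33, 4.36 and 4.38 in replicates 1 to 3 (log2). As for Il1rl1, irradiated replicate 1 was the highest array and the non-irradiated replicates 1 to 3 were the lowest. Mpeg1 differed in direction from Il1rl1 between the doses, with a log2 difference of -1.06 (SE 0.32).

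**Figure D4:**
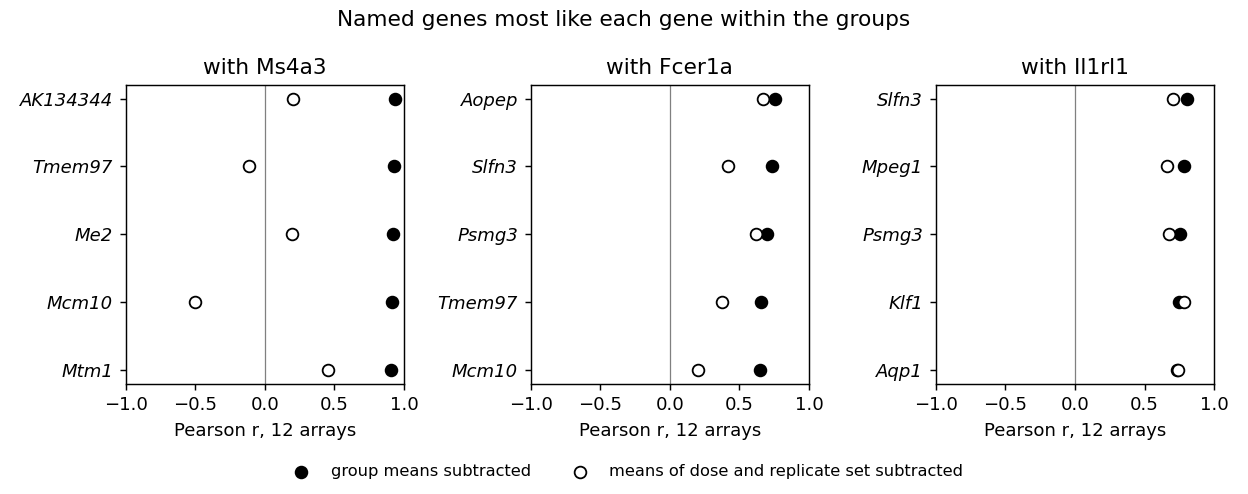
Pearson's r over 12 arrays of the 5 named genes most like Ms4a3, Fcer1a and Il1rl1, with group means subtracted (filled) or the means of dose and replicate set subtracted (open). The open points fall to between -0.50 and 0.45 for Ms4a3 and stay between 0.66 and 0.78 for Il1rl1.

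Few other genes of these lineages and pathways were in the authors' table, and the other list members carry no name here. That table covers only 451 of the 22626 probe sets measured, so low counts do not set a list apart from other genes. Neither these counts nor those of the lists below were tested against this share. Of 16 granulocyte-monocyte progenitor markers, the table held Ms4a3 alone, and of 21 mast cell and basophil markers it held Fcer1a and Il1rl1. It held 0 of 9 eosinophil and 0 of 9 neutrophil markers, and 1 of 8 monocyte and macrophage markers (Mpeg1). Of 9 megakaryocyte markers 4 were in the table, 2 higher and 2 lower, and of 9 lymphoid markers 4, all lower. Fcer1a was the 1 gene of 14 of the IgE receptor and its signalling, Il1rl1 the 1 gene of 19 of the IL-33 pathway and type 2 cytokines, and Ms4a3 the 1 gene of 14 of the MS4A family. The label of the group thus rests on these 3 genes. All named genes of the table divide into 128 higher and 197 lower, with a median log2 difference of -1.06.

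The IL-1 receptor family held 3 named genes of 9, and they differed in direction. Like the 3 genes, Il1r1 and Il1r2 have a name only through their own 2-fold difference between these groups, so their values are a description with no test. Il1rl1, Il1r1 and Il1r2 are among the 11.3% of probe sets called in either direction. Il1r1, the signalling receptor for IL-1, was 2.07-fold lower in irradiated cells (log2 difference -1.05, SE 0.17). It read 7.20, 7.23 and 6.63 in irradiated replicates 4 to 6 and 7.16, 7.58 and 7.17 in irradiated replicates 1 to 3, against 8.08, 8.02 and 8.75 in non-irradiated replicates 4 to 6 and 7.87, 8.13 and 8.41 in non-irradiated replicates 1 to 3. Every irradiated array lay below every non-irradiated one, which the choice of the gene on these arrays favours. Il1r2, the decoy receptor for IL-1, was 3.56-fold lower in irradiated cells (log2 difference -1.83, SE 0.35). It read 5.13, 5.41 and 5.69 in irradiated replicates 4 to 6 and 4.58, 4.39 and 4.40 in irradiated replicates 1 to 3, against 7.43, 7.29 and 7.42 in non-irradiated replicates 4 to 6 and 6.91, 5.60 and 5.96 in non-irradiated replicates 1 to 3. Irradiated replicate 6 reached above non-irradiated replicate 2, and within each replicate set the groups did not overlap. The choice favours this too. The share of all probe sets that lay apart downwards, over all arrays or within a set, is not given here.

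Along mouse chromosome 1 these genes are neighbouring protein-coding genes (RefSeq, GRCm38.p6), in the order Il1r2, Il1r1, Il1rl2, Il1rl1, Il18r1 and Il18rap. Il1rl1 was thus higher and the nearby Il1r1 and Il1r2 lower in the same irradiated arrays, while Il1rl2, Il18r1 and Il18rap carry no name here. Ms4a2, which encodes the beta chain of the IgE receptor, is the protein-coding gene next to Ms4a3 on chromosome 19, and it carries no name here either.

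**Figure D5:**
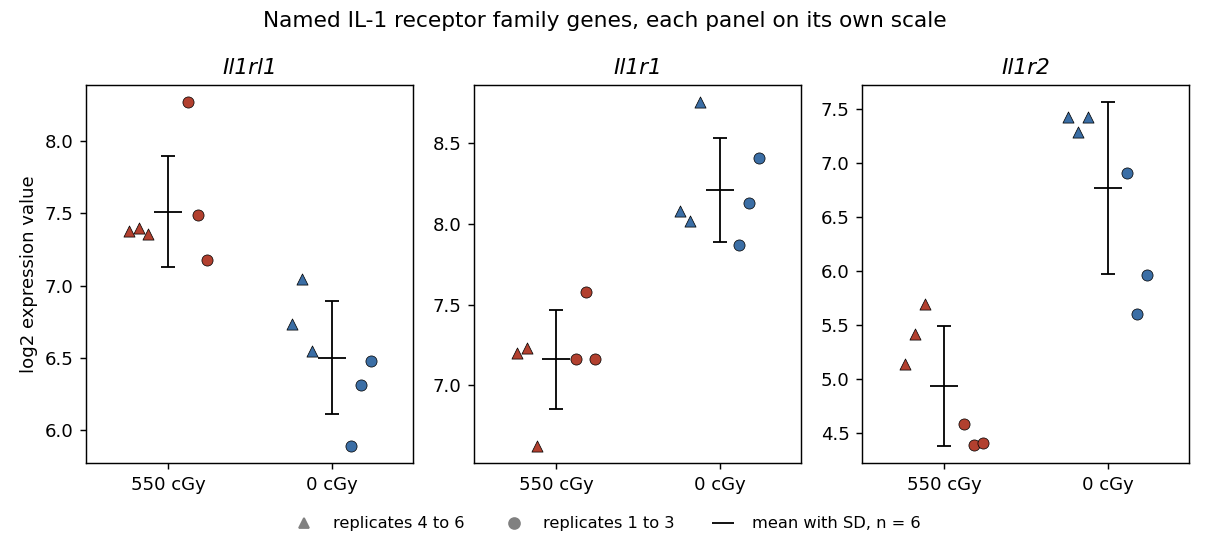
Log2 expression value of Il1rl1, Il1r1 and Il1r2 on each array, with 550 cGy left of 0 cGy, triangles for replicates 4 to 6, circles for replicates 1 to 3, and the mean with SD over 6 arrays in black. Il1rl1 is higher and Il1r1 and Il1r2 are lower in the irradiated arrays.

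Of 18 transcription factors of these lineages, 3 were in the authors' table, 2 higher and 1 lower. They too were named through their difference between these groups, so no test of it is given. Gata1, a factor of erythroid, megakaryocytic and mast cells, read 8.93, 8.99 and 8.98 in irradiated replicates 4 to 6 and 9.41, 8.35 and 8.50 in irradiated replicates 1 to 3. In non-irradiated cells it read 7.78, 7.47 and 7.10 in replicates 4 to 6 and 7.27, 6.59 and 7.27 in replicates 1 to 3. The groups did not overlap, a separation upwards that 3.00% of all probe sets showed and that the choice of the gene favours. The log2 difference was 1.61 (SE 0.20). Gata1 changed by 1.52 in replicates 4 to 6, against 1.71 in replicates 1 to 3. The difference between these changes missed the threshold (limma adjusted p = 0.903). Gfi1b, a repressor of erythroid and megakaryocytic cells, was 2.09-fold higher, and Klf4, a zinc finger factor of monocytic cells, 2.35-fold lower in irradiated cells. For Gfi1b the groups overlapped, with 4 of 6 irradiated arrays above all non-irradiated ones. Gfi1b changed by 1.40 in replicates 4 to 6, against 0.74 in replicates 1 to 3 (log2). The difference between these changes missed the threshold (limma adjusted p = 0.526).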

How the data were processed

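Each array was deposited by the authors as log2 values, 1 per probe set. The submitters' processing notes name Partek, and the sources used here state neither its version nor the background correction or normalization. For 454 probe sets a table deposited by the authors holds gene symbols, a p-value without adjustment, the linear ratio (irradiated over non-irradiated), a signed fold and scores of an analysis of variance (F and sums of squares). Of these, 436 name 1 gene. RefSeq (GRCm38.p6) gave current symbols by gene ID for 425 of them, and the brightest probe set stood for a gene.

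All 22626 probe sets were fitted with limma 3.58.1 in R 4.3.3 (lmFit, eBayes) without a filter, once with 1 term for dose and once with the 4 groups of dose and replicate set. P-values were adjusted by Benjamini-Hochberg over all probe sets and called under 0.05. The fits were tested on simulated data. Correlations used exact permutation tests with SciPy 1.17.1. Figures used matplotlib 3.10.9.

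The genes and the lists were chosen with earlier results of these data known, as were the replicate sets. The named genes are the 3 genes, for each the 5 named genes with the highest r, and list members in the authors' table. Same-numbered arrays of the 2 groups correlated above 0.1 in 5 of 6 pairs, but 1 of 6 irradiated arrays matched its own number best. The numbers were not taken as pairs in the main fits, and a fit with the replicate block is given below. The committed progenitors named in the design text were not analysed here.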

Additional observations from a re-analysis of the deposited data

Results flagged for a closer look

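The change of Ms4a3 after irradiation differed between the replicate sets, by -2.66 on the log2 scale for replicates 4 to 6 minus replicates 1 to 3 (limma adjusted p = 0.00503), as described above. Within each set all 3 irradiated arrays lay above all 3 non-irradiated arrays for Ms4a3. The gaps were 0.32 (replicates 4 to 6) and 2.60 (replicates 1 to 3). Ms4a3 was chosen for its difference on these same arrays, which favours such gaps, so they are no independent check. The share of all probe sets that showed them within a set is not given here. The replicate sets were also chosen with earlier results of these data known. Irradiated replicate 1 read 8.27 for Il1rl1, and its distance to the next irradiated array was 0.718 of the range of the group, above Dixon's critical value of 0.625 for 6 samples. Chance alone passes this value in about 1 of 20 groups, and 6 groups were examined.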

How the results depend on the processing

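The differences of Ms4a3, Fcer1a and Il1rl1 between the doses stayed positive in all 62 recomputed values. The choice of the genes on these same arrays favours this, so it is no independent check. The differences ranged from 1.52 to 2.07, 0.96 to 1.28 and 0.86 to 1.12 without 1 array. In replicates 4 to 6 alone they were 0.49 (SE 0.11), 0.42 (SE 0.34) and 0.60 (SE 0.13). In replicates 1 to 3 alone they were 3.15 (SE 0.22), 1.77 (SE 0.21) and 1.42 (SE 0.30). With array weights that of Ms4a3 was 1.16. Without the dimmest 40% of probe sets Fcer1a gave no value. With the replicate block 1451 probe sets were higher and 1350 lower, against 1329 and 1238, and the differences of the 3 genes were 1.82, 1.10 and 1.01; 1 of 6 irradiated arrays matched its own number best. Higher and lower probe sets numbered 740 to 1531 and 773 to 1303 without 1 array, 720 and 738 in replicates 4 to 6 alone and 539 and 601 in replicates 1 to 3 alone; with the replicate set as a term 2099 were higher and 1833 lower, and with array medians subtracted 1765 and 1081. The 30 probe sets with a different change between the sets became 96 with a trended and robust prior, 47 with array weights and 4 to 129 without 1 array. Of these differences, that of Ms4a3 ranged from -2.83 to -2.50, that of Fcer1a from -1.68 to -1.07 and that of Il1rl1 from -1.05 to -0.50 without 1 array, and no call changed in 50 recomputed values. The 2694 probe sets with a different mean level between the sets became 1555 to 3099 without 1 array. That mean difference was 1.02 for Ms4a3 (limma adjusted p = 0.00187), 0.11 for Fcer1a and 0.14 for Il1rl1. It was 0.93 to 1.10, -0.02 to 0.27 and 0.02 to 0.30 without 1 array, with the value of -0.023 without non-irradiated replicate 5. Within each dose, alternatives chosen after seeing the data, it was -0.31, -0.57 and -0.27 in the irradiated and 2.35, 0.79 and 0.55 in the non-irradiated arrays. The r of -0.02 for Ms4a3 and Il1rl1 in irradiated cells became 0.075 with quantile normalization, 0.066 with array medians subtracted and 0.20 by Spearman, and that of 0.06 for Fcer1a and Il1rl1 became -0.086 by Spearman. The cause of these shifts was not tested.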
